A study of Rattus norvegicus with 4 samples.

Results

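The rat cDNA array carried 20 probes, of 1936 in all, for chaperones of the heat shock families, folding factors of the endoplasmic reticulum and the enzyme Asns. They were taken by gene symbol in the platform's probe table: Asns, Calr, Canx or P4hb, or a symbol beginning with Pdia, Hspa, Hspb, Hspd, Hspe, Hsph, Hsp90 or Dnaj. The probes stood for 14 genes, 4 of them with more than 1 probe, and 1 further probe was shared by Hspa1b and Hspa1a, which gave 15 features. Of these, 5 lie inside the reticulum (Pdia3, Pdia4, P4hb, Calr and Dnajb9), 1 in its membrane (Dnajb14), 2 in mitochondria (Hspa9 and Hspe1) and 6 in the cytosol (Dnaja1, Dnaja2, Dnajc7, Hspb3, Hspb6 and the shared Hspa1b/Hspa1a probe), and 1 is the amino acid enzyme Asns. Canx, Hspa5 and the Hsp90, Hspd and Hsph genes were not analysed here. Heat shock proteins in the narrow sense came to 5 features (Hspb3, Hspb6, Hspe1, Hspa9 and the shared probe), and the others are J proteins, folding factors of the reticulum and Asns.

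Livers came from male Sprague-Dawley rats of 250 to 300 g. In the ligation group the common bile duct was tied, and in the sham group it was exposed but not tied, and both were studied 12 h after surgery under ether. RNA of 3 rats per group was mixed, so each group was 1 pool, and each of the 4 arrays carried both pools. Ligation RNA was labelled with Cy5 on arrays 1 and 3 and with Cy3 on arrays 2 and 4. Nothing in the labels says that the arrays used separate extracts, so the p-values speak for array-to-array spread, which may be technical, and for no spread among rats. In such pooled tissue, fewer cells of a type and less RNA per cell cannot be told apart.

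Proteins that hepatocytes secrete are folded inside the endoplasmic reticulum. There, disulfide isomerases such as P4hb, Pdia3 and Pdia4 form and rearrange disulfide bonds, calreticulin (Calr) holds glycoproteins, and proteins with a J domain (the Dnaj genes) stimulate Hsp70-type chaperones. When unfolded proteins accumulate, the sensors of the unfolded protein response raise many of these factors. A branch of that response shares the transcription factor ATF4 with the response to amino acid shortage, of which Asns is a classical target. Chaperones of the cytosol are controlled mainly by a different pathway, the heat shock response, through the factor Hsf1.

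Every value below is a log2 ratio read as ligation over sham, so a positive value means higher in the ligation pool. That direction is likely from the order of the channels in the labels but is not stated, and the base of the logarithm was taken as 2. The columns had medians of -1.26, 0.43, -0.96 and 0.26 for arrays 1 to 4, and each was centred on its median. Values below are relative to that zero, and without centring every gene moved by about -0.38. Over all 1936 probes, arrays of the same dye orientation correlated at Pearson r = 0.93 and 0.94, and arrays of opposite orientation at -0.45 to -0.28, a description across probes of the same slides. Each gene was therefore fitted with a ligation term (the mean of the 4 arrays) and a dye term, which is the mean of the arrays with ligation in Cy5 minus the mean of those with ligation in Cy3, divided by 2. If the table instead held Cy5 over Cy3, the dye term would be the ligation effect, and that value is given for the genes called among the 15 features and for each named gene whose sign it turns.

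In the ligation pool, asparagine synthetase and the disulfide isomerase Pdia3 were higher and the disulfide isomerase Pdia4 was lower, each by 1.24-fold to 1.30-fold. The other 12 features did not pass limma's Benjamini-Hochberg adjusted p under 0.05, among them all 6 of the cytosol and both of the mitochondrion. The 3 calls in 14 genes and 1 shared probe compare with 260 of 958 named genes on the array, or 27.1%. In the higher direction the array called 11.7% of its named genes and in the lower direction 15.4%. Per probe, 3 of 20 passed (0 without array 4 and 5 without array 1), against 27.9% of 1648 probes. None of the 15 features reached 1.5-fold, a size reached by 56 of the 958 genes (5.85%). Both calls in the higher direction rest on the zero point, since without centring Asns was at -0.0069 and Pdia3 at -0.059. In that setting 13 of the 15 features were called lower, against 791 of the 958 named genes. In either direction 83.7% of the named genes were then called. Read as Cy5 over Cy3, 12 of the 15 features were called, against 78% of the named genes. The dye term was larger in size than the ligation term in 13 of the 15 features and in 78.2% of the named genes.

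**Figure D1:**
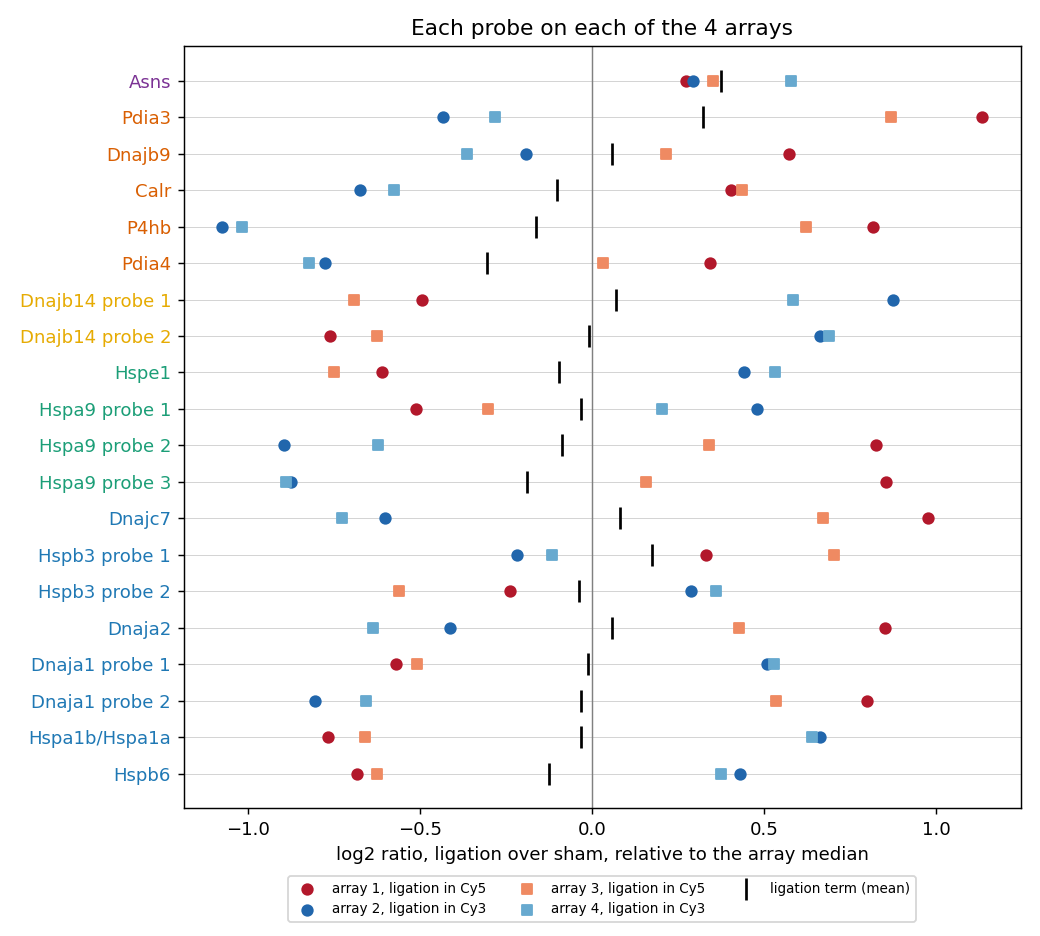
Centred log2 ratio (ligation over sham, horizontal axis) of each of the 20 probes on each of the 4 arrays; red and orange points are arrays with ligation in Cy5, blue points arrays with ligation in Cy3, circles the first and squares the second array of an orientation, black bars the mean, and label colours the compartments. In 19 of the 20 probes the red and blue pairs lie on opposite sides of 0, and Asns alone has all 4 points on the same side, between 0.27 and 0.58.

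Asns makes asparagine from aspartate and glutamine. Its probe read 0.27 on array 1, 0.30 on array 2, 0.35 on array 3 and 0.58 on array 4. It was the only one of the 20 probes above 0 on all 4 arrays, and both dye orientations gave like values. The ligation term was 0.37 ± 0.077 (SE, 4 arrays), a 1.30-fold higher level in the ligation pool (limma adjusted p = 0.00238), and the dye term was only -0.062. Each SE here and below, figures included, is the moderated SE of limma, which rests mostly on a spread pooled over all features. With any single array left out the ratio stayed between 0.30 and 0.45. Without array 2, and without array 4, the SE was 0.115 for Asns and for every other gene followed through the alternatives. Calls kept or lost in those fits therefore rest on a spread pooled over genes, not on that of the gene itself. Of the 958 named genes, 53 (5.53%) were above 0 on all 4 arrays, and 135 (14.1%) had a ratio at least as large in size as that of Asns. Read as Cy5 over Cy3, Asns would be at -0.062 (adjusted p = 0.471).

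Pdia3, also known as ERp57, works with calreticulin on glycoproteins. It read 1.13 on array 1, -0.43 on array 2, 0.87 on array 3 and -0.28 on array 4. The arrays with ligation in Cy5 were thus high and those with ligation in Cy3 low, and the size of the dye term (0.68) was above that of the ligation term of 0.32 ± 0.077 (SE, 4 arrays; 1.25-fold, adjusted p = 0.00671). The call of Pdia3 was lost without array 4 (0.28, adjusted p = 0.0589). Pdia4, or ERp72, is a larger member of the same family. It read 0.34 on array 1, -0.78 on array 2, 0.03 (0.033) on array 3 and -0.82 on array 4. The order of the arrays by dye was the same as for Pdia3, but the whole set lay lower. Its ligation term was -0.31 ± 0.078 (SE, 4 arrays; 1.24-fold lower, adjusted p = 0.00946), and the call was lost without array 3 (-0.23, adjusted p = 0.0582) and kept, at -0.21, with centring within the blocks in which the slide was printed (print-block centring, adjusted p = 0.0452). P4hb, the founding disulfide isomerase of the family and a subunit of the collagen prolyl hydroxylase, read 0.82, -1.08, 0.62 and -1.02 on arrays 1 to 4. Its ligation term of -0.16 ± 0.074 had an adjusted p of 0.126, and print-block centring brought it to -0.27 (adjusted p = 0.00983). Read as Cy5 over Cy3, Pdia3, Pdia4 and P4hb would all be higher, at 0.68, 0.49 and 0.88.

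The isomerases can also be set against each other within an array, where the zero point drops out. Pdia3 exceeded Pdia4 by 0.79 on array 1, 0.34 on array 2, 0.84 on array 3 and 0.54 on array 4, a mean of 0.63 ± 0.23 (SD, 4 arrays). Pdia3 exceeded P4hb by 0.32, 0.64, 0.25 and 0.74, a mean of 0.49 ± 0.24. Both differences were above 0 on arrays 1, 2, 3 and 4, in either dye orientation. P4hb against Pdia4 gave 0.47, -0.30, 0.59 and -0.20 (mean 0.14 ± 0.45), so the sign followed the dye. These pairs were chosen after the values were seen and were not tested. With the sign turned on arrays 2 and 4, as for Cy5 over Cy3, the mean differences became 0.19, -0.20 and 0.39.

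**Figure D2:**
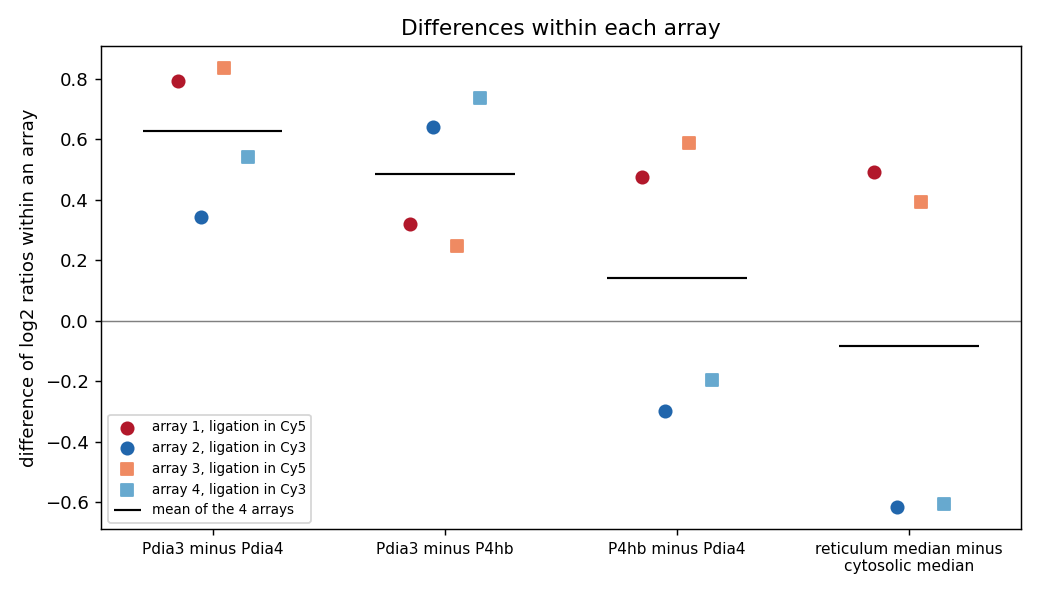
Differences between centred log2 ratios within each array (vertical axis) for the 3 pairs of disulfide isomerases and for the median of 5 reticulum genes minus the median of 6 cytosolic features; points are arrays, coloured by dye orientation, and black lines the mean of the 4 arrays. All 4 points are above 0 for Pdia3 minus Pdia4 and for Pdia3 minus P4hb, while the other two comparisons change sign with the dye.

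Calreticulin, the calcium-binding lectin chaperone, read 0.40, -0.67, 0.44 and -0.58 on arrays 1 to 4. With a ligation term of -0.10 ± 0.072 (adjusted p = 0.362) it did not pass, and its 2 orientations did not overlap. Dnajb9, or ERdj4, a J protein of the reticulum that helps remove misfolded proteins, read 0.57, -0.19, 0.22 and -0.36, a ligation term of 0.058 ± 0.081 (adjusted p = 0.695). Dnajb14, a J protein anchored in the reticulum membrane, was measured by 2 probes with averages of -0.63, 0.77, -0.66 and 0.64, and its ligation term was 0.030 ± 0.072 (adjusted p = 0.834). Its dye term of -0.67 was of opposite sign to those of the 5 genes inside the reticulum, which lay between 0.34 and 0.88.

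Promoter sequence was looked up for the genes behind the 15 features, because the elements of the unfolded protein and heat shock responses are known. RefSeq windows on assembly GRCr8 were found for 13 of 16 genes, and Pdia3, Dnaja2 and Hspa1b had none in the table. Each window ran from 250 bases before the start of the gene in that table to shortly after it. Both strands were searched for CCAAT and CCACG separated by 9 bases (the element called ERSE), ATTGG and CCACG separated by 1 base (ERSE-II), TGATGNAA (the C/EBP-ATF element of the amino acid response) and GAA, TTC and GAA separated by 2 bases each (a heat shock element of inverted units). Among all 33469 windows of that table, 0.0657%, 0.0508%, 3.98% and 0.798% held these letters. Calr held ERSE on the reverse strand, 232 to 214 bases before the start. Hspe1 held the heat shock element at 65 to 53 and at 60 to 48 bases before the start, matches that overlap. Hspa9 held the C/EBP-ATF letters at 164 to 157 bases before the start, and Dnaja1 held a heat shock element just after its start. The other 9 windows, those of Asns, Hspa1a, Pdia4 and P4hb among them, had no match to these letters. The starts were not checked against transcripts, so a window without a match does not show that the gene lacks the element. For Asns, Dnajb9, Dnajc7 and Hspa9 the span of the gene in RefSeq reaches further upstream than the start used in the table. 3 windows are shown, those of Calr and Hspe1 for their matches and that of Pdia4 as 1 of the 2 genes with a window that passed the test, the other being Asns. The 250 bases before the start are given 5′ to 3′ on the gene's strand, with matches in capitals: Calr at chr19:40213117-40213366 (plus strand), Hspe1 at chr9:64084077-64084326 (plus strand) and Pdia4 at chr4:78153192-78153441 (minus strand).
Calr: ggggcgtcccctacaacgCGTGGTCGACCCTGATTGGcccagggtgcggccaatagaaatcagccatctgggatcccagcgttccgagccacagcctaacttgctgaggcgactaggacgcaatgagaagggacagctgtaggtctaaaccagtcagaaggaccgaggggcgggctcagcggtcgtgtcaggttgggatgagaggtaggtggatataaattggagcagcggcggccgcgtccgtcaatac
Hspe1: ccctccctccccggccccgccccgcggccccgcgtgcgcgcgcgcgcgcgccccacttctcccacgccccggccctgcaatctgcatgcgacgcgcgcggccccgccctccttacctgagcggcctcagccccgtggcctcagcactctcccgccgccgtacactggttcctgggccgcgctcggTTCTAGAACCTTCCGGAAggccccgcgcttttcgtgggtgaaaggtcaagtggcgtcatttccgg
Pdia4: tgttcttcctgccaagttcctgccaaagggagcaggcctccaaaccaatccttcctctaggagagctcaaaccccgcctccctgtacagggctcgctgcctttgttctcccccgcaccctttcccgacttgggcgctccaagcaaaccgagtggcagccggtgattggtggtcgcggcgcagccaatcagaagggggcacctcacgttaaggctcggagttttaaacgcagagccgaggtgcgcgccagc
Neither gene whose window is shown with a match passed the test: Calr was at -0.10 and Hspe1 at -0.097 (adjusted p = 0.404).

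Hspe1, the mitochondrial Hsp10 that caps the Hsp60 folding chamber, read -0.61, 0.44, -0.75 and 0.53 on arrays 1 to 4, with a ligation term of -0.097 ± 0.073 (SE, 4 arrays). Hspa9, or mortalin, the Hsp70 of mitochondria that pulls precursor proteins through the inner membrane, had 3 probes. Their mean read 0.39, -0.43, 0.066 and -0.44, with a ligation term of -0.10 ± 0.078 (adjusted p = 0.408). By probe the ligation terms were -0.033, -0.088 and -0.19, and the dye terms were -0.37, 0.67 and 0.69. The ligation terms of the probes thus spanned 0.15 (0.155), more than the size of the ligation term of the gene. Their dye terms spanned 1.07.

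**Figure D3:**
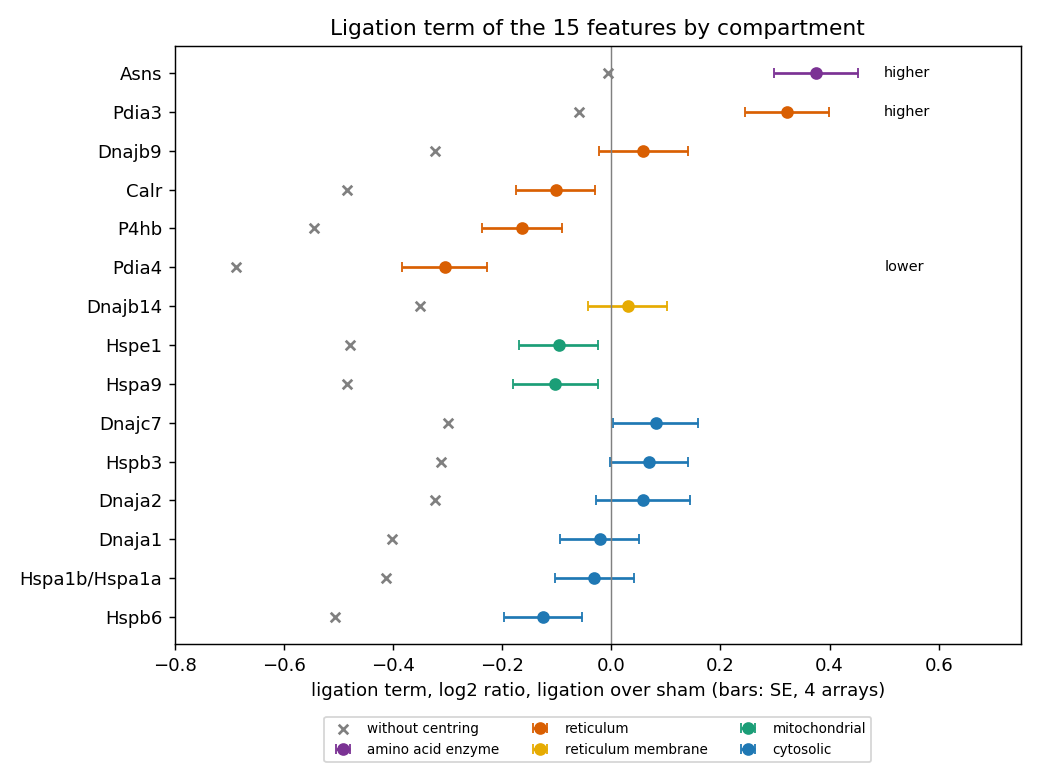
Ligation term (log2 ratio, ligation over sham, horizontal axis) of the 15 features, coloured by compartment, with bars of 1 SE over 4 arrays; grey crosses are the values without centring, and the words mark the calls. Asns and Pdia3 lie at 0.37 and 0.32 and Pdia4 at -0.31, the other 12 between -0.16 and 0.081, and all 15 are below 0 without centring.

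In the cytosol, Dnajc7, a J protein that binds both Hsp70 and Hsp90, had the highest ratio, 0.081 ± 0.078 (SE, 4 arrays), with 0.98, -0.60, 0.67 and -0.73 on arrays 1 to 4. Dnaja2, a J protein partner of cytosolic Hsp70, read 0.85, -0.41, 0.43 and -0.64, a ligation term of 0.058 ± 0.086. The sign of each followed the dye. The related Dnaja1 had a ligation term of -0.021 ± 0.072, and its 2 probes gave -0.011 and -0.032 although their dye terms were -0.53 and 0.70. The probe shared by Hspa1b and Hspa1a, the strongly heat-inducible Hsp70 genes, read -0.77, 0.66, -0.66 and 0.64 on arrays 1 to 4, a ligation term of -0.031 ± 0.072. The near-identical genes cannot be told apart by it.

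The small heat shock proteins Hspb3 and Hspb6 are best known from muscle. Hspb6, or Hsp20, read -0.68, 0.43, -0.62 and 0.38 and had the lowest ligation term of the cytosolic features, -0.13 ± 0.071 (adjusted p = 0.238). Hspb3 averaged 0.047, 0.035, 0.071 and 0.12 over its 2 probes, all above 0 but small, with a ligation term of 0.069 ± 0.072 (adjusted p = 0.567). Its probes were at 0.18 and -0.037, with dye terms of 0.34 and -0.36 that cancelled in the average. With Asns it made 2 of 15 features with the same sign on all 4 arrays, against 12.6% of the 958 genes. The 6 cytosolic ratios spanned -0.13 to 0.081, and the unadjusted p of each was above 0.1.

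The 5 genes inside the reticulum had a median ligation term of -0.10 and a range from -0.31 to 0.32, with 1 called higher and 1 lower. The 6 cytosolic features had a median of 0.018 and no call in either direction. Of all named genes, 11.7% were called higher and 15.4% lower, and among so few features the counts were not tested against these shares. The difference of these medians was -0.12, but it was -0.064 with print-block centring, -0.069 without array 1 and -0.078 without array 2. By array, the reticulum median minus the cytosolic median was 0.49 on array 1, -0.62 on array 2, 0.39 on array 3 and -0.61 on array 4 (SD 0.61), so its sign followed the dye orientation. All 5 reticulum genes had dye terms above 0, against 3 of 6 cytosolic features and 56.9% of the 958 named genes. The median over all named genes was -0.013, and over the 15 features -0.021. Read as Cy5 over Cy3, the difference between the compartments would be 0.49 (0.485). The isomerases ran in both directions around 0, and the cytosolic features lay within about 1 or 2 SE of it. Dnajb14 of the reticulum membrane (0.030, dye term -0.67) was not among the 5 reticulum genes, a choice made after its symbol was seen. The difference with it included was not computed. No test of the difference between the compartments was made.

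**Figure D4:**
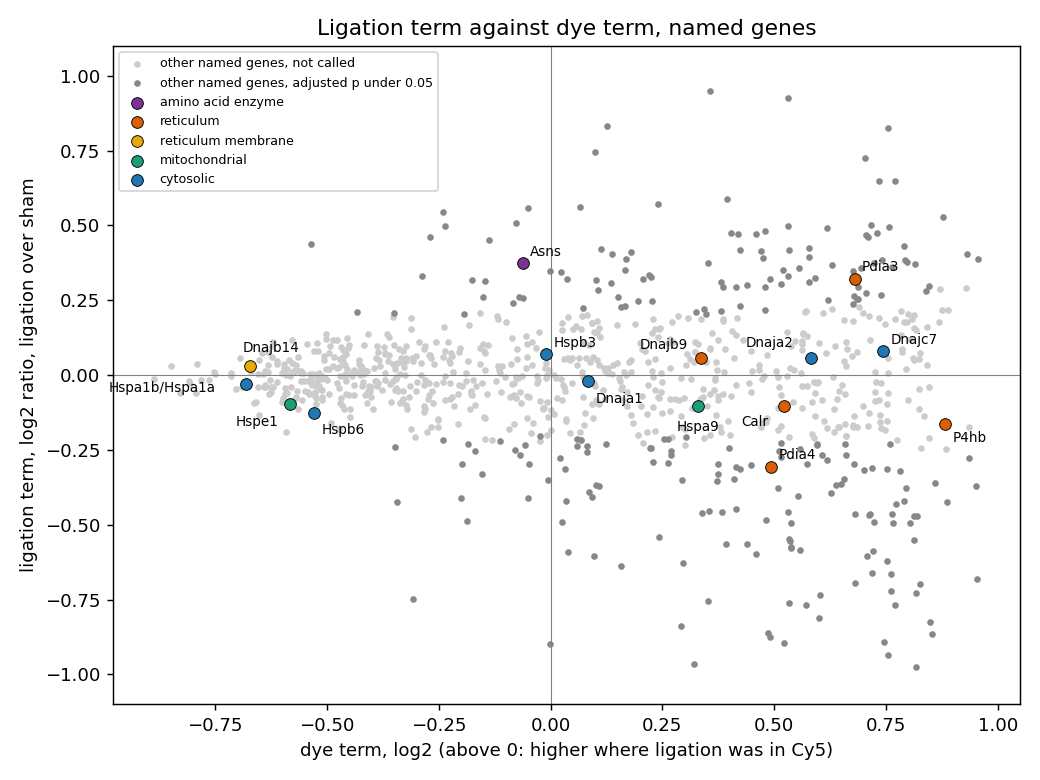
Ligation term (vertical axis) against dye term (horizontal axis), both log2, for the named genes; light and dark grey points are other genes not called and called, and large points the 15 features by compartment, with 13 genes beyond 1.1 in size on the vertical axis not drawn. Called genes are rare at the left edge and frequent at the right, where Pdia3, Pdia4, P4hb and Calr lie, while Dnajb14, Hspe1, Hspb6 and the Hspa1b/Hspa1a probe lie at the left.

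The share of genes called depended on where a gene lay along the dye term. Among the 240 named genes with the lowest dye terms, up to -0.31, 3 were higher and 2 lower, and the median size of the ratio was 0.045. Among the 240 with the highest dye terms, from 0.52 up, 45 were higher (18.8%) and 72 lower (30%), and the median size was 0.23. Dnajb14, Hspb6 and Hspe1 fell in the first of these groups, and the shared Hspa1b/Hspa1a probe (-0.68) had a dye term in the same range. Pdia3, P4hb, Calr, Dnaja2 and Dnajc7 fell in the second, and Pdia4, Dnajb9 and Hspa9 among the 239 genes just below it. Of these 8 genes, 2 passed the test. The shares called were 18.8% higher and 30% lower among the 240 genes, and 18% higher and 18% lower among the 239. The signal over background is unknown for every probe, so a ratio near 0 among the genes of lowest dye term does not show that the transcript was equal in both pools.

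Few of the regulators of the unfolded protein response were measured. Of 5 genes, 1 was higher and 1 lower, against 11.7% of the named genes higher and 15.4% lower. Eif2s1, the initiation factor subunit whose phosphorylation slows translation under stress, was higher (0.24 ± 0.075, adjusted p = 0.0273), but was at -0.14 without centring. Ddit3, or CHOP, the stress-induced transcription factor, was lower (-0.23 ± 0.072, adjusted p = 0.0307), with 0.59, -0.95, 0.47 and -1.03 on arrays 1 to 4. The call of Eif2s1 was lost without array 1, 2 or 4 (0.19, 0.27 and 0.21, adjusted p = 0.101, 0.0695 and 0.213), and that of Ddit3 without array 2, 3 or 4 (-0.25, -0.20 and -0.21, adjusted p = 0.109, 0.0916 and 0.218). Both calls were also lost with the upper-quartile zero point, which centres each array on its probes of highest dye term (adjusted p = 0.127 for Eif2s1 and 0.0647 for Ddit3) and with quantile normalization (0.0700 and 0.0677), and that of Ddit3 with print-block centring (-0.13, adjusted p = 0.136). Xbp1, the transcription factor spliced in this response and named here outside the rule for naming genes, was at 0.13 ± 0.079 (adjusted p = 0.261). The array gives no measure of its splicing.

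Of 4 other genes of reticulum folding and secretion, 2 were lower and 2 did not pass, against 15.4% of the named genes lower and 27.1% called in either direction. Creld2, a folding factor that rises in reticulum stress, read 0.039, -1.11, -0.072 and -1.05 on arrays 1 to 4, with a ligation term of -0.55 ± 0.072 (SE, 4 arrays; 1.46-fold lower, adjusted p = 8.15e-05). Sar1b, the GTPase that starts transport vesicles leaving the reticulum, was at -0.47 ± 0.076 (adjusted p = 0.000434). Both kept their calls without centring, with any array left out, and under each other alternative except the fit without a dye term. Under the reading Cy5 over Cy3 their signs turned, to 0.53 and 0.71.

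Of 8 other measured genes of the amino acid response, 0 were higher and 1 was lower in limma, namely Ddit3, against 11.7% and 15.4% of the named genes. At an unadjusted p under 0.05 the counts were 1 with a positive ratio and 1 with a negative one. The positive one was Phgdh, the first enzyme of serine synthesis, at 0.18 ± 0.072 (adjusted p = 0.0887). With print-block centring Phgdh was called higher (0.24, adjusted p = 0.0176) while Ddit3 was not called (-0.13, adjusted p = 0.136). Trib3, a pseudokinase induced by ATF4, was at 0.062 ± 0.080 (adjusted p = 0.671). These last 2 genes fall outside the rule for naming genes.

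Among 10 co-chaperones and chaperonin subunits of the cytosol, 3 were higher, 2 were lower and 5 did not pass, against 11.7% of the named genes higher and 15.4% lower. Subunits of the chaperonin that folds actin and tubulin led the higher side. Cct5 read 0.99, 0.0026, 0.93 and -0.0025 on arrays 1 to 4, with a ligation term of 0.48 ± 0.071 (adjusted p = 0.000216), and Cct6a was at 0.38 ± 0.076 (adjusted p = 0.00222). The subunit Tcp1, named outside the rule, was at 0.16 ± 0.074 (adjusted p = 0.144). Without centring Cct5 was at 0.099 and Cct6a at -0.0056, neither called. St13, which binds Hsp70, was at 0.22 ± 0.074 (adjusted p = 0.0426, and -0.16 without centring). On the lower side were Stip1, which links Hsp70 to Hsp90, at -0.25 ± 0.076 (adjusted p = 0.0253), and Cdc37, which brings kinases to Hsp90, at -0.41 ± 0.12 (adjusted p = 0.0255). Cdc37 varied most, with -0.51, -0.87, -0.41 and 0.14 on arrays 1 to 4, and leaving out array 1, 2 or 3 ended its call, at adjusted p = 0.188, 0.404 and 0.151, while without array 4 it was at -0.66. The call of St13 ended without array 1, 2 or 4 (0.17, 0.22 and 0.21, adjusted p = 0.129, 0.166 and 0.212), and that of Stip1 without array 2, 3 or 4 (-0.23, -0.19 and -0.28, adjusted p = 0.163, 0.114 and 0.0671). Print-block centring ended the calls of St13 (0.10, adjusted p = 0.281), Stip1 (-0.18, 0.0678) and Cdc37 (-0.38, 0.0955). The upper-quartile zero point ended those of St13 (0.18, adjusted p = 0.191) and Cdc37 (-0.45, 0.0542), and quantile normalization that of Cdc37 (-0.39, 0.0656). Hsf1, named outside the rule, was at 0.076 ± 0.074 (adjusted p = 0.543). No gene of the list for mitochondrial import was analysed here.

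**Figure D5:**
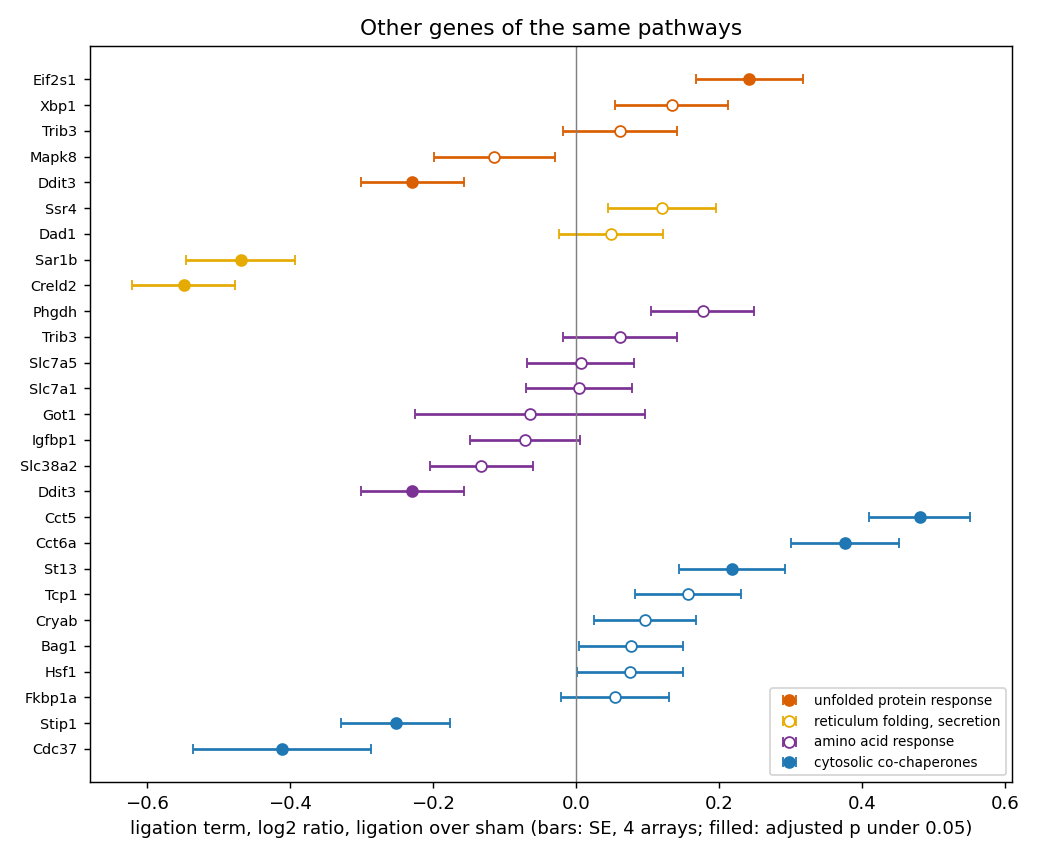
Ligation term (log2 ratio, ligation over sham, horizontal axis) with bars of 1 SE over 4 arrays for the other measured genes of 4 pathway lists; filled points passed adjusted p under 0.05, and Ddit3 and Trib3 stand in 2 lists. Creld2 and Sar1b are lowest among the reticulum genes, at -0.55 and -0.47, and Cct5 is highest among the cytosolic ones, at 0.48.

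Ratios of cell type markers were set beside these values. Levels cannot be read from ratios, so the tissue label could not be checked against marker levels. All 4 measured genes of the hepatocyte list were higher, against 11.7% of the named genes: Apoa1 (0.38), Tf (0.37), Ttr (0.26) and Serpina1 (0.20). All 4 were below 0 without centring. They encode plasma proteins and do not stand for hepatocyte genes at large. Cyp7a1, an enzyme of bile acid synthesis named outside the rule, was lower (-0.90, limma adjusted p = 9.24e-06). All 3 measured genes of the leukocyte list were lower, the cytokine genes Tnf (-0.57) and Ccl5 (-0.33) and the surface marker Cd53 (-0.27), against 15.4% of the named genes. The endothelial markers Ece1 (-1.18) and Kdr (-0.33) were lower, and the third, Tek, did not pass. Of 2 stellate cell markers, Timp1 was higher (0.35) and Col1a1 lower (-0.23). Of 2 genes on the cholangiocyte list, Anxa5 was higher (0.95), and its specificity for these cells was not tested. The other, Spp1, named outside the rule, did not pass (0.14, limma adjusted p = 0.212). The blood marker Pf4 was at -0.022. Leaving out a single array ended the call of Serpina1 for each of the 4 arrays, with adjusted p up to 0.24 (0.20, without array 4). It ended that of Ttr without array 1, 2 or 4 (up to 0.115, at 0.25 without array 4) and those of Cd53 and Col1a1 without array 2, 3 or 4 (up to 0.0966 and 0.177, at -0.26 and -0.22 without array 4). The call of Kdr ended without array 1 or 2 (-0.26 and -0.20, adjusted p = 0.149 and 0.242) and that of Ccl5 without array 2 (-0.28, adjusted p = 0.0574). The upper-quartile zero point ended the calls of Timp1 (0.31, adjusted p = 0.091), Col1a1 (-0.27, 0.0542), Kdr (-0.37, 0.0556), Ttr (0.21, 0.109) and Serpina1 (0.16, 0.291), and print-block centring that of Ttr (0.15, 0.121). The call of Serpina1 also ended with quantile normalization (adjusted p = 0.0622), with controls kept (0.0506) and with the median of probes (0.0516). The part of cell composition in the ratios of Asns, Pdia3 and Pdia4 was not tested.

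Over the 4 centred arrays, the genes closest to Asns by root mean square distance were Timp1, the inhibitor of matrix proteases (distance 0.12), and the kinase Src (0.17). Closest to Pdia3 were the calmodulin gene Calm2 (0.041) and Dync1h1, the heavy chain of cytoplasmic dynein (0.079). Closest to Pdia4 were Stip1 (0.080) and Ms4a6a, a membrane protein (0.094). For Pdia3 and Pdia4 this likeness includes the dye term, so it also groups genes by their response to the dyes.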

How the data were processed

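Liver RNA pools were compared on 2-colour cDNA arrays. The authors deposited 1 log ratio per probe and array, while for base, direction, scanning and normalization the sources used here give nothing. The deposited values were read as log2 of channel 2 over channel 1, and each of the 4 arrays was centred on its median. Of 1936 probes, 1432 had 1 symbol in the platform annotation, 19 several and 485 none. The 288 spots at 18 positions unnamed in all 16 print blocks were taken as controls and left out. Probes sharing a single symbol were averaged per array, which left 958 genes and 216 other probes, and 1648 probes were also fitted singly. Models with a ligation and a dye term were fitted with limma 3.58.1 (R 4.3.3) and eBayes, adjusted by Benjamini-Hochberg over 1174 features, and checked on simulated data. The prior SD was 0.155 on 10.4 degrees of freedom, against 2 residual degrees of freedom per gene, and the median moderated SE was 0.076. Precision is limited by the number of arrays, and depth is unknown. The members, gene lists and tests were chosen with earlier results of these data known. Named were all members, up to 5 called genes per list (or the 2 largest ratios where none was called), and the 2 genes nearest to Asns, Pdia3 and Pdia4. Dnajb14 was put in its own class after its symbol was seen. Alternatives were other zero points, quantile or print-block normalization, no dye term, a robust prior, the other direction, controls kept, median of probes, and each array left out.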

Additional observations from a re-analysis of the deposited data

How the results depend on the processing

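No separate paired analysis was run, because each log ratio already compared both pools on the same array. No filter on dim probes was run, since no intensities were used. The calls among the 15 features, 3 in all, stayed at 3 with the upper-quartile zero point, quantile normalization, a robust prior, kept controls and the median of probes, and ranged from 2 to 3 with 1 array left out. They became 4 with print-block centring (2 higher, 2 lower, P4hb being added), 13 without centring (0 higher, 13 lower), 12 read as Cy5 over Cy3 and 0 without a dye term. The 3 called probes became 17, 19 and 0 under these settings, 5 with print-block centring, and 0 to 5 with 1 array left out, where 0 was without array 4 and 5 without array 1. The 260 called genes became 802, 747 and 0, 180 with the upper-quartile zero point (60 higher and 120 lower, against 112 and 148), and 191 to 240 with 1 array left out. The compartment difference of -0.12 ranged from -0.14 to -0.069 with 1 array left out, and was -0.064 with print-block centring and 0.49 (0.485) read as Cy5 over Cy3. The cause of these changes was not tested, except that without a dye term the dye effect enters the residual spread and that without centring every gene is shifted by the same amount. Without array 2 or array 4 every gene followed had the same SE (0.115). Calls kept or lost there do not measure the consistency of a single gene.

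Without centring the sign turned for Apoa1 (-0.0039), Cct6a (-0.0056), Asns (-0.0069), Tf (-0.014), Calm2 (-0.025), Timp1 (-0.034), Src (-0.037), Pdia3 (-0.059), Ttr (-0.13), Dync1h1 (-0.13), Eif2s1 (-0.14), St13 (-0.16), Serpina1 (-0.18), Phgdh (-0.20), Tcp1 (-0.22), Spp1 (-0.25), Xbp1 (-0.25), Dnajc7 (-0.30), Hsf1 (-0.31), Hspb3 (-0.31), Trib3 (-0.32), Dnajb9 (-0.32), Dnaja2 (-0.32) and Dnajb14 (-0.35). Read as Cy5 over Cy3 it turned for Timp1 (-0.00049), Hspb3 (-0.010), Asns (-0.062), Eif2s1 (-0.085), Serpina1 (-0.19), Spp1 (-0.41), Trib3 (-0.46), Dnajb14 (-0.67), Dnaja1 (0.085), Cd53 (0.27), Hspa9 (0.33), Ccl5 (0.37), Tnf (0.44), Pdia4 (0.49), Ms4a6a (0.51), Stip1 (0.51), Calr (0.52), Creld2 (0.53), Sar1b (0.71), Ddit3 (0.76), Ece1 (0.84) and P4hb (0.88). With print-block centring, uncalled values turned for Dnajb14 (-0.0031), Hsf1 (-0.034), Dnajb9 (-0.058), Dnaja2 (-0.058), Hspe1 (0.0031), Hspa1b/Hspa1a (0.0048) and Dnaja1 (0.0067), and with the upper-quartile zero point for Dnajb14 (-0.011). With 1 array left out, uncalled values crossed 0 for Trib3 (-0.027 to 0.15), Dnajb9 (-0.031 to 0.15), Dnaja2 (-0.049 to 0.16), Dnajb14 (-0.0026 to 0.063), Dnaja1 (-0.047 to 0.0041) and Pf4 (-0.099 to 0.054).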

Other observations

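The 4 genes measured by more than 1 probe gave a description of how the arrays behave. The ligation terms of the probes of a gene spanned 0.021 for Dnaja1, 0.077 for Dnajb14, 0.15 (0.155) for Hspa9 and 0.21 for Hspb3. The dye terms of the same probes spanned 1.23, 0.024, 1.07 and 0.70. For Dnaja1, Hspa9 and Hspb3, probes of the same gene had dye terms of opposite sign, so read as Cy5 over Cy3 these probes would disagree on the direction of their gene. Read as ligation over sham, the probes of Hspb3 (0.18 and -0.037) and of Dnajb14 (0.069 and -0.0082) also differed in sign. The spans cannot be compared directly, because the median size over the 15 features was 0.097 for the ligation term and 0.53 for the dye term. Over the 20 probes, arrays of opposite orientation correlated at r = -0.89 to -0.76, and arrays of the same orientation at 0.92 and 0.97, descriptions across probes that share the same slides.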
